A study of Mus musculus with 4 samples.

Results

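Tubular injury and repair markers were followed in kidney scRNA-Seq. They are 10 genes, chosen by symbol, of the 32285 genes counted in 4 libraries: Havcr1, Lcn2, Krt20, Vcam1, Icam1, Sox9, Krt8, Krt18, Spp1 and Clu. Each gene was read in proximal tubule (PT) cells, taken as cells with at least 5 unique molecular identifiers (UMIs) of Slc34a1 and Lrp2 together, the phosphate transporter and the endocytic receptor of this segment. The rule found 9114 PT cells among 34789 kept cells, and 11 other classes of cells were gated the same way on their own marker genes. The classes are gates on summed marker UMIs and not clusters or annotated cell types.

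Whole kidneys of male C3H mice were the source, 18 weeks of age, with 1 library per condition. WT mice and SP mice, which are homozygous for a missense mutation of Slc5a2 (the gene of the glucose transporter SGLT2) in every cell of the body, were given normal diet (ND) or high-fat diet (HFD, 60% of calories from fat) for 8 weeks from 10 weeks of age. The libraries are called WT-ND and WT-HFD for WT mice and SP-ND and SP-HFD for SP mice, and values given without names follow that order. All kidneys were minced and digested with enzymes at 37°C, with trypsin as the last enzyme, before droplets were made, and the number of mice per library is not given in the sources used here. With 1 library per condition no difference has a replicate check, so values are compared with counting intervals only and no difference by diet or genotype was tested. Whether a diet difference itself differed by genotype was not tested either.

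Kept cells numbered 6754 to 10869 per library, and the libraries held 90728590 to 115117649 UMIs over 13229 to 16385 barcodes, although 10000 cells were loaded for each. The PT rule took 3313 cells in WT-ND against 3622 in WT-HFD, while SP-ND had 1323 and SP-HFD 856. The WT-HFD library stood apart in these cells. In it 48.1% of PT cells also passed the gate of another class, against 14.2% to 16.0% in the other libraries, and 16.3% passed 3 or more other gates, against 0.302% to 0.634%. Several cells in a droplet and cells of mixed identity cannot be told apart in these counts. Values are therefore read mainly in the 6529 PT cells that passed no other gate, called PT-only cells, with all PT cells beside them where they differ (PT-only cells numbered 2783 in WT-ND against 1879 in WT-HFD, while SP-ND had 1135 and SP-HFD 732). Median UMIs per PT-only cell were 7930 in WT-ND against 5023 in WT-HFD, while SP-ND had 13448 and SP-HFD 9202. Between 54 and 77 barcodes were shared by any 2 libraries, of which 0 to 6 were PT cells in both.

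Slc5a2, the mutated gene, was counted at 325 CPM (counts per 1000000 UMIs of the same cells) in PT-only cells of WT-ND and 255 in WT-HFD, as against 60.2 for SP-ND and 106 for SP-HFD. Its level was lower in both SP libraries than in both WT libraries. The counts do not show the mutated base, so this level is no direct check of genotype.

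Injured tubular cells lose transporters of the mature segment and turn on genes that resting tubules keep low. Havcr1 encodes KIM-1, a receptor for dying cells, and Lcn2 encodes the secreted iron-siderophore carrier NGAL. Both are used as markers of tubular injury. Cells that do not complete repair are often recognised by Vcam1, an adhesion molecule for leukocytes, whereas Sox9, a transcription factor, marks tubular cells that enter a repair program. Krt8 and Krt18 pair into the keratin filaments of simple epithelia. Spp1, secreted osteopontin, and Clu, the secreted chaperone clusterin, are also made by the healthy distal nephron.

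All 10 genes are annotated as protein coding on GRCm38 (GENCODE M21). Havcr1 lies on chr11:46735080-46779578, Lcn2 on chr2:32384633-32388252, Krt20 on chr11:99428403-99438150 and Vcam1 on chr3:116109949-116129688. Icam1 lies on chr9:21015985-21028817, Krt8 on chr15:101996698-102004482 and Krt18 on chr15:102028180-102032027. Sox9 lies on chr11:112782224-112787760, Spp1 on chr5:104435118-104441050 and Clu on chr14:65968483-65981547. Lcn2, Krt20, Vcam1 and Krt8 are read from the minus strand and the others from the plus strand. Vcam1, Icam1 and Krt8 each overlap a gene model on the other strand, and whether reads of those models entered their counts was not checked. A Krt8 pseudogene is annotated, so Krt8 counts could hold its reads. Spp1 overlaps the gene model Gm42793 on its own strand, which is not among the genes counted, so reads of that model could stand under Spp1.

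The 250 bases before the RefSeq start of Icam1 and Spp1 are shown because Icam1 is a classical target of the inflammatory factor NF-kB and because Spp1 had the largest difference between libraries in PT-only cells among members with at least 1 CPM on average. They are written 5′ to 3′ on the plus strand of GRCm38.p6, Icam1 at chr9:21015690-21015939 and Spp1 at chr5:104434861-104435110, with a match to the NF-kB-type motif (GGG, any 4 bases, then TCC, read here on the minus strand) in capitals.
Icam1: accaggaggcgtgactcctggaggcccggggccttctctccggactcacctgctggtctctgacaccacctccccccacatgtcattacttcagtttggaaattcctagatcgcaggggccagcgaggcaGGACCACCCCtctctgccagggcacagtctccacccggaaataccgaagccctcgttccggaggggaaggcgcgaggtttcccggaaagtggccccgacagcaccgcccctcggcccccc
Spp1: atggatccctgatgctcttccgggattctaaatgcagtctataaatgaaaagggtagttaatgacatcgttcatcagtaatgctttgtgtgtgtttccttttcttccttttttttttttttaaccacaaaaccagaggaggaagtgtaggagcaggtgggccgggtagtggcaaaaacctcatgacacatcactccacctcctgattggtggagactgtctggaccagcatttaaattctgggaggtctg
The Icam1 match begins 120 bases before the start, and the Spp1 window held none. Only exact matches to this pattern are marked, so any other form of an NF-kB motif stays in lower case. Searched on both strands, that motif occurred in 3 of the 10 windows of members (Lcn2, Icam1 and Krt18) and in 16.5% of all 32851 windows. Those 10 windows belonged to the 7 members with a RefSeq window. TGANTCA, an AP-1-type motif, occurred in 0 of the 7 members and in 6.75% of all windows. Vcam1, Sox9 and Clu had no entry. A match describes letters and not binding.

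The members fell into distinct places along the nephron. Levels below are the mean CPM of the 4 libraries in cells that passed 1 gate only. Havcr1 was highest in PT-only cells at 3.22 (2.15 to 5.29 over the libraries) and was counted with 0 to 6 UMIs in all in each other class. Its highest library in intercalated cells, 2.65, rested on 4 UMIs and lay within the PT range, so that order rests on few molecules. Sox9 stood at 3.15 in PT-only cells (2.52 to 3.63) and at 3.15 in intercalated cells (0.417 to 6.84), whose ranges overlap.

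Vcam1 and Icam1, the adhesion molecules, were led by cells outside the tubule. Vcam1 reached 76.0 CPM in endothelial cells, 65.7 in macrophages and 44.8 in mesenchymal cells, against 8.78 in PT-only cells (5.04 to 13.5). The ranges of the endothelial cells and macrophages overlapped. Icam1 was highest in neutrophils at 142 CPM, with 73.9 in macrophages and 60.3 in endothelial cells, against 6.82 in PT-only cells. Lcn2 belonged to neutrophils (683 CPM) and, within the tubule, to principal cells (106) and the thick ascending limb (27.4), whereas PT-only cells held 0.455.

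Krt18, and not Krt8, separated PT from both collecting duct classes. Krt8 stood at 94.3 CPM in PT-only cells (70.3 to 113), below principal cells (227) and within the range of intercalated cells (79.0 to 112). Krt18, its partner, stood at 4.37 in PT-only cells (3.40 to 6.40) against 279 in principal cells, 177 in thin limb cells and 114 in intercalated cells. Krt8 thus exceeded Krt18 in PT-only cells of every library, and Krt18 exceeded Krt8 in principal cells of every library. The order of PT was shared by the thick ascending limb (69.4 CPM of Krt8 and 5.32 of Krt18) and the distal convoluted tubule (66.2 and 4.985). These are 3′ counts, at most 1 UMI per captured molecule, which carry no correction for length. Krt20 was close to absent, with 3 UMIs or fewer in all in each class other than PT and 6 in PT-only cells.

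Spp1 and Clu were high in distal segments. Spp1 averaged 18360 CPM in thin limb cells, 3188 in the thick ascending limb, 2056 in the distal convoluted tubule, 1300 in principal cells, 973 in intercalated cells and 162 in PT-only cells. Clu averaged 581 in the distal convoluted tubule, 516 in principal cells, 189 in intercalated cells and 12.2 in PT-only cells. The ranges of the distal convoluted tubule and principal cells overlapped for Clu. For Spp1 they did not, with the lowest distal convoluted tubule library at 1722 CPM and the highest principal cell library at 1683.

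**Figure D1:**
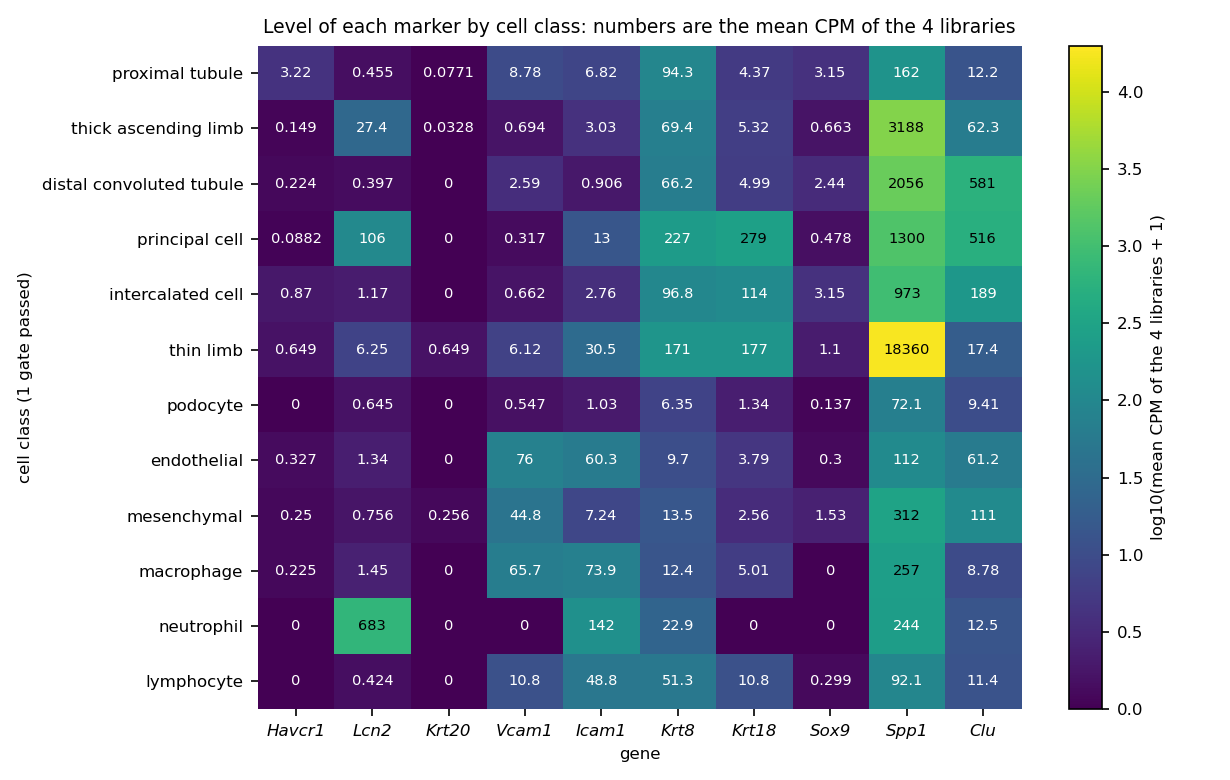
Heat map of the 10 members (columns) in PT-only cells and the 11 other classes (rows), where the number in each cell is the mean CPM of the 4 libraries and the color is log10 of that mean plus 1. Spp1 is highest in thin limb cells at 18360 CPM, Lcn2 in neutrophils at 683 and Havcr1 in PT-only cells at 3.22.

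In PT cells of the 4 libraries, as gated here, the classical injury genes were scarce. The gate asks for Slc34a1 and Lrp2, so PT cells that had lost these transcripts were not read. Kept cells of any class with 3 or 4 such UMIs numbered 1264, 875, 299 and 205 and lay outside it. PT-only cells also leave out PT cells with gate genes of another class. How many injured cells were left out was not tested. Havcr1 was counted at 2.58 CPM in WT-ND against 3.39 in WT-HFD, while SP-ND had 2.03 and SP-HFD 2.15. In PT-only cells the same values were 2.92 (exact Poisson 95% interval 2.29 to 3.67), 5.29 (4.28 to 6.46), 2.15 (1.47 to 3.04) and 2.52 (1.56 to 3.85). WT-HFD was the highest library in both sets. Such intervals cover counting error only and take UMIs as independent, which is least true where a few cells hold most of them: 5 WT-HFD cells held 50 of the 95 Havcr1 UMIs.

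Lcn2 in PT cells was 2.03 CPM in WT-ND against 7.13 in WT-HFD, while SP-ND had 2.49 and SP-HFD 0.293, the last from 3 UMIs. In PT-only cells its mean was under 1 CPM and it rested on 4, 19, 9 and 0 UMIs in the same order. The SP-HFD count of 0 sets an upper limit of 0.360 CPM (3 counts). Of the WT-HFD Lcn2 UMIs in PT cells, 7.66% came from PT-only cells and 67.7% from PT cells that also passed the principal cell gate. Krt20 was counted with 3, 2, 2 and 1 UMIs in all PT cells, so no ratio is given for it.

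The adhesion molecules differed in their order of libraries. Vcam1 in PT-only cells was 8.53 CPM in WT-ND (7.43 to 9.75) against 13.5 in WT-HFD (11.8 to 15.3), while SP-ND had 8.06 (6.68 to 9.64) and SP-HFD 5.04 (3.63 to 6.81). WT-HFD was highest and SP-HFD lowest. All PT cells kept that order, at 10.5, 13.7, 7.40 and 6.75 CPM. Icam1 in PT-only cells was 4.86 CPM in WT-ND against 8.07 in WT-HFD, while SP-ND had 7.39 and SP-HFD 6.96, with WT-ND the lowest, and all PT cells held 6.50, 10.5, 7.51 and 6.94. Sox9 stayed within a narrow range, 3.36 CPM in WT-ND against 3.12 in WT-HFD, while SP-ND had 3.63 and SP-HFD 2.52, and all 4 intervals overlapped. In all PT cells Sox9 stood at 3.35, 2.50, 3.28 and 2.74 CPM.

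Krt8 was higher on HFD in both genotypes by more than its counting error. Its level in PT-only cells was 81.8 CPM in WT-ND (78.3 to 85.4) against 112 in WT-HFD (107 to 117), while SP-ND had 70.3 (66.1 to 74.7) and SP-HFD 113 (106 to 121). The intervals of the HFD libraries did not overlap those of the ND libraries. All PT cells gave nearly the same values, 81.9, 113, 69.3 and 108 CPM. Krt18 in PT-only cells was 3.40 CPM in WT-ND against 6.40 in WT-HFD, while SP-ND had 3.96 and SP-HFD 3.72, and it was higher with mixed cells included (11.1, 20.1, 7.97 and 7.33 CPM).

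Spp1 and Clu also depended on which PT cells were read. Spp1 in all PT cells was 210 CPM in WT-ND against 863 in WT-HFD, while SP-ND had 444 and SP-HFD 205. In PT-only cells it was 79.4 CPM (76.0 to 82.9), 179 (173 to 186), 288 (279 to 297) and 101 (94.5 to 108) in that order, so that SP-ND and not WT-HFD was the highest library. Clu in all PT cells was 36.2, 69.8, 30.8 and 22.7 CPM. In PT-only cells Clu was 11.1 CPM in WT-ND against 23.4 in WT-HFD, while SP-ND had 7.19 and SP-HFD 7.20, and WT-HFD kept the highest value.

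**Figure D2:**
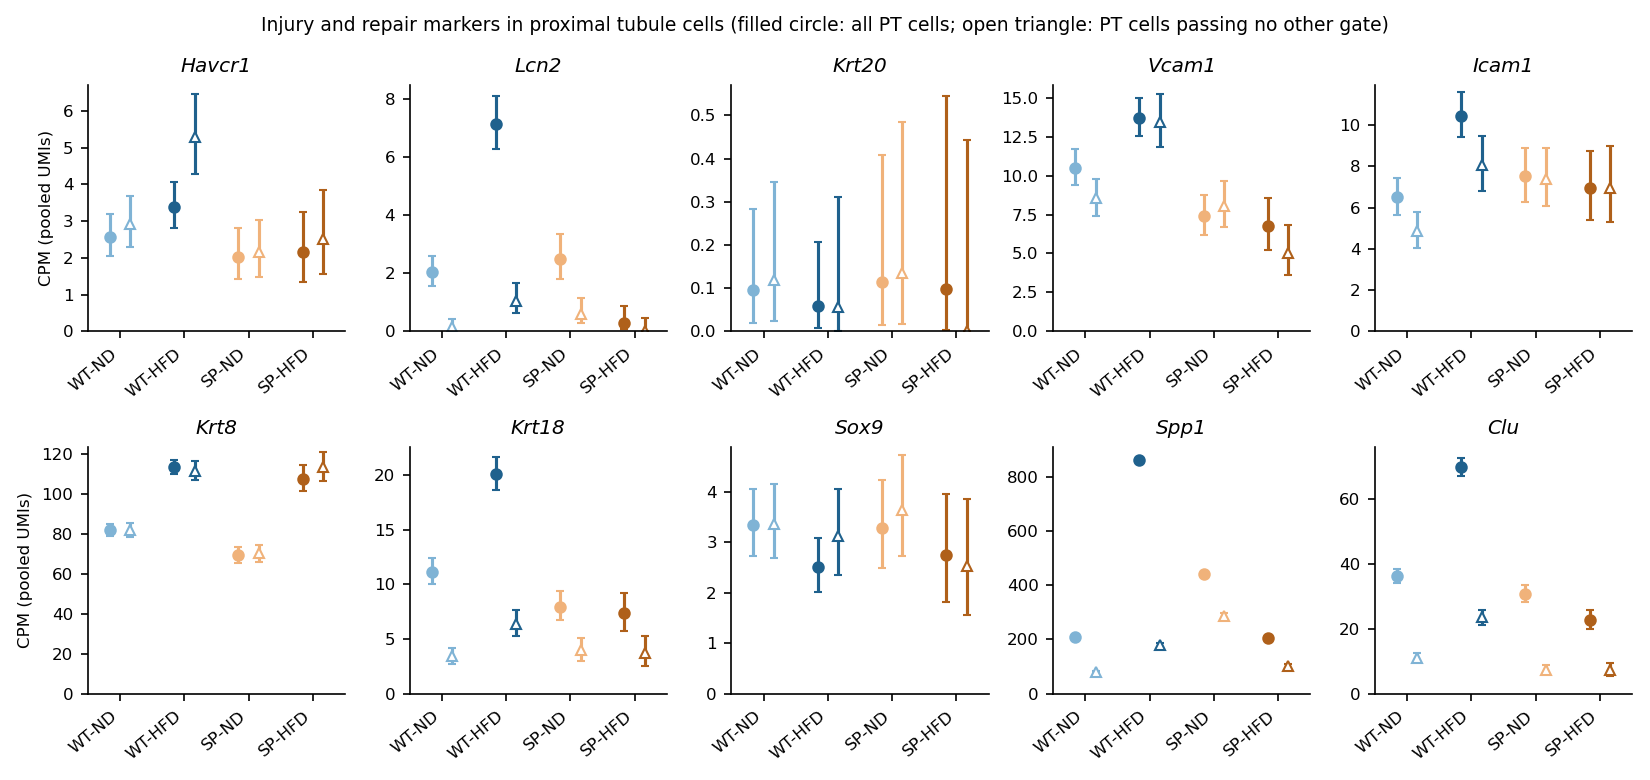
CPM of each member in the 4 libraries on linear axes from 0, with filled circles for all PT cells, open triangles for PT-only cells and bars for exact Poisson 95% intervals. Spp1 of WT-HFD is 863 CPM in all PT cells and 179 in PT-only cells, while Krt8 is 113 and 112.

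Comparisons are log2 ratios of CPM with exact conditional binomial 95% intervals, and a gene counts as higher or lower past 2-fold. Of the 10 members, 9 had a mean of at least 1 CPM over the libraries in PT cells (not Krt20) and 8 in PT-only cells (not Krt20 or Lcn2).

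The diet comparison in WT asked whether HFD went with injury markers in PT cells. On HFD 2 members were past 2-fold higher in PT cells, Lcn2 (log2 ratio 1.81, 1.41 to 2.24) and Spp1 (2.04, 2.00 to 2.08), and 0 lower. Among all 12168 genes tested 6.74% were higher and 1.65% lower. In PT-only cells the 2 higher members were Spp1 (1.18, 1.09 to 1.26) and Clu (1.08, 0.86 to 1.31), with 0 lower, against 4.94% higher and 1.69% lower of 11369 genes. Of the 8 members, 7 were above 0, and their median log2 ratio was 0.79 against 0.03 for all genes. In the same cells Umod, the thick ascending limb protein uromodulin, was 72.7 CPM in WT-ND and 290 in WT-HFD. Gate genes of the other tubular classes also stood higher in WT-HFD, for 2 of 2 thick ascending limb, 2 of 2 distal convoluted tubule, 3 of 3 principal cell, 4 of 4 intercalated cell and 4 of 4 thin limb genes, none of them at 0 in either library. Their summed levels are given further on, and their part in these ratios was not tested. Leaving out PT cells with 2 or more UMIs of another gate gave 0.25 for Spp1 and 0.48 for Clu, an alternative added after the data were seen. Havcr1 (0.85, 0.40 to 1.31), Icam1 (0.73, 0.38 to 1.09) and Vcam1 (0.66, 0.39 to 0.93) were under 2-fold. Without the 5 cells with the most UMIs of the gene, the ratio was 0.26 for Havcr1 and 0.08 for Vcam1. Over all alternatives tried in PT-only cells, Havcr1 ranged from 0.26 to 2.27 and Vcam1 from 0.08 to 1.15. Spp1 ranged from 0.25 to 1.79 and Clu from 0.29 to 2.05. With no upper limit on genes per cell, Havcr1 was past 2-fold higher in all PT cells.

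For diet in SP, 0 members were past 2-fold higher in PT cells and 2 were lower on HFD, Lcn2 (−3.08, −5.42 to −1.44, with 3 UMIs in SP-HFD) and Spp1 (−1.11, −1.18 to −1.04). Among all genes 5.36% were higher and 2.57% lower. In PT-only cells Spp1 alone of the 8 members was lower (−1.51, −1.62 to −1.40) and 0 were higher, against 5.15% higher and 3.47% lower. Vcam1 stood at −0.68 (−1.22 to −0.16) and Havcr1 at 0.23 (−0.64 to 1.07), both under 2-fold. The ratio of Vcam1 ranged from −3.31 to −0.42 over the alternatives tried, and that of Spp1 from −1.92 to −1.02. That of Havcr1 changed sign, from −0.94 to 1.09 in PT-only cells and from −1.03 to 1.33 in all PT cells. In all PT cells Havcr1 was past 2-fold higher with no upper limit on genes per cell. Under 30% mitochondrial UMIs it was past 2-fold lower there.

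Krt8 was higher on HFD in both genotypes under every alternative tried, though under 2-fold. In PT-only cells its log2 ratio was 0.45 in WT (0.36 to 0.54, alternatives 0.23 to 0.49) and 0.69 in SP (0.56 to 0.82, alternatives 0.44 to 0.73). It was the only one of the 8 members with an interval above 0 in both genotypes. Intervals are narrower for genes with many UMIs, and Krt8 had 946 to 2071 per library. The share of all genes with such intervals was not counted. The ratio of its partner Krt18 was 0.91 in WT (0.50 to 1.33) and −0.09 in SP (−0.77 to 0.56).

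For genotype on ND, Spp1 was the 1 member past 2-fold higher in SP in PT cells (1.08, 1.03 to 1.13), and 0 were lower, against 0.797% higher and 3.52% lower of all genes. In PT-only cells Spp1 was again the 1 member higher (1.86, 1.78 to 1.94) with 0 lower, against 1.58% higher and 1.95% lower. Its range over the alternatives was 1.50 to 2.22 in PT-only cells and 0.54 to 1.86 in all PT cells, where a PT gate of 3 UMIs gave 0.54 and ended the call. Scaling without mitochondrial UMIs moved the median of all genes by up to 0.10 in this comparison and in that of diet in SP.

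For genotype on HFD, 5 members were past 2-fold lower in SP in PT cells and 0 higher, against 7.74% lower and 0.871% higher of all genes. The 5 were Lcn2 (−4.60), Spp1 (−2.07), Clu (−1.62), Krt18 (−1.46) and Vcam1 (−1.02). In PT-only cells 3 were lower and 0 higher, against 3.29% lower and 0.756% higher: Clu (−1.70, −2.12 to −1.31), Vcam1 (−1.42, −1.93 to −0.94) and Havcr1 (−1.07, −1.83 to −0.38). Each of the 3 fell under 2-fold in some alternative. Clu stood at −0.39 without cells of 2 or more UMIs of another gate and at −0.79 with a PT gate of 10 UMIs. Vcam1 stood at −0.87 with no upper limit on genes per cell, a setting that also gave 0.087 in all PT cells in place of −1.02. Havcr1 stood at −0.14 as a mean over cells, −0.57 without its 5 top cells and −0.96 with a PT gate of 10, and its ratio in all PT cells was −0.66 (−1.39 to 0.007). Spp1 in PT-only cells stood at −0.83 (−0.94 to −0.72) and at 0.34 without cells of 2 or more UMIs of another gate, a turn in direction. Each comparison shares its libraries with 2 of the other 3, so the 4 are not separate evidence.

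**Figure D3:**
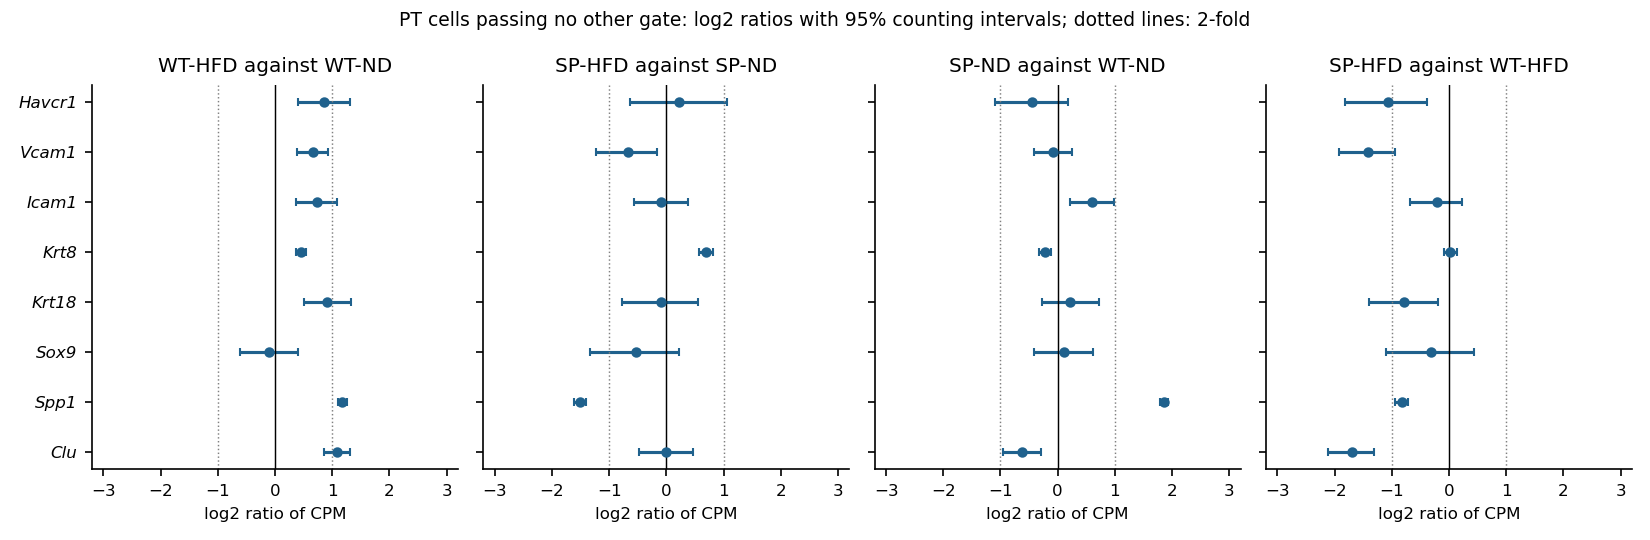
Log2 ratios of CPM in PT-only cells for the 8 members with at least 1 CPM on average, in 4 panels for the 4 comparisons, with bars for 95% counting intervals and dotted lines at 2-fold. Krt8 lies right of 0 in both diet panels (0.45 and 0.69), and Spp1 lies right of 0 in WT (1.18) and left in SP (−1.51).

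The other genes of injury and repair were read from lists of 35 genes for stress, dedifferentiation, secreted signals, fibrosis and proliferation. The lists were chosen with earlier results of these data known. In PT-only cells 30 of the 35 had at least 1 CPM on average. Against 4.94% higher and 1.69% lower of all genes, 10 of the 30 were past 2-fold higher for diet in WT and 4 lower. They included S100a6, a calcium-binding protein (log2 ratio 1.90, 11.3 CPM in WT-ND and 42.0 in WT-HFD), the chemokine Cxcl1 (1.89), the surface protein Cd24a (1.69) and the intermediate filament Vim (1.61), all higher, and the monocyte chemokine Ccl2 (−4.09) and Prom1 (−1.67), both lower. In WT-HFD 285 of the 755 S100a6 UMIs lay in 3 cells with 3 or more Havcr1 UMIs. In all PT cells the Vim ratio was 0.81. For diet in SP, 4 were higher and 3 lower, against 5.15% higher and 3.47% lower of all genes. S100a6 (1.76) and Vim (1.01) were again higher, as was Il34, a growth factor for macrophages (2.57, from 2.62 to 15.6 CPM). The stress hormone Gdf15 (−1.50), complement C3 (−1.41) and Prom1 (−1.24) were lower. In all PT cells Gdf15 (−0.92), C3 (−0.81) and Vim (0.60) were under 2-fold. Without the 5 cells with the most UMIs of the gene in each library, added after the data were seen, S100a6 stood at 1.48 in WT and 0.02 in SP and Vim at 0.59 in SP.

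For genotype on ND, 3 of the 30 were higher in SP and 5 lower, against 1.58% higher and 1.95% lower of all genes. Cxcl1 was higher (2.53). The cycling genes Top2a (−4.04, 84 UMIs in WT-ND and 3 in SP-ND) and Mki67 (−2.76) were lower, with Ccn2 (−1.55), Fn1 (−1.69) and Il34 (−1.53). In all PT cells the Ccn2 ratio was −0.02. For genotype on HFD, 1 was higher and 6 were lower, against 0.756% higher and 3.29% lower of all genes. The higher gene was Ccl2 (2.79, from 10 UMIs in WT-HFD against 32 for SP). The lower genes included the matrix signal Ccn2 (−2.66), Vim (−1.83), the keratin Krt7 (−1.64), Mki67 (−1.56) and Cd24a (−1.09). The Ccn2 ratio in all PT cells was −0.92. Leaving out the same top cells left 0 UMIs in at least 1 library for Ccl2 in both its comparisons, Top2a, Fn1 and Mki67. The lower side of these ratios thus rested on 5 cells or fewer. For Ccl2 the higher side fell too, from 240 UMIs to 2 in WT-ND and from 32 to 0 in SP-HFD. Median log2 ratios of the 30 genes were 0.25, −0.18, 0.18 and −0.22 in the order diet in WT, diet in SP, genotype on ND and genotype on HFD.

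The Spp1 difference of WT-HFD followed the cells that passed several gates. PT-only cells held 10.7% of the Spp1 UMIs of PT cells in WT-HFD, against shares of 30.8% for WT-ND, 54.6% for SP-ND and 40.2% for SP-HFD. The 592 WT-HFD cells with 3 or more other gates stood at 2008 CPM and held 51.5% of that library's PT Spp1 UMIs. In the 247 WT-HFD cells that also passed the thin limb gate, Spp1 stood at 3900 CPM. Krt8 behaved otherwise, at 112 CPM with no other gate and 125 with 3 or more.

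Marker levels of other tubular classes moved with WT-HFD also inside PT-only cells. Summed gate genes of the thick ascending limb stood at 25.8 CPM in WT-ND against 50.8 in WT-HFD, while SP-ND had 33.8 and SP-HFD 20.6, and those of intercalated cells at 29.3, 73.2, 21.3 and 30.0. For the distal convoluted tubule the sums were 12.8, 45.0, 10.6 and 13.2 CPM, for principal cells 44.2, 73.0, 36.3 and 40.5, and for thin limb 1.94, 9.63, 3.83 and 4.32. WT-HFD was the highest library in each of these and in each of the other classes, among them endothelial genes at 5.69, 27.1, 4.63 and 6.36 CPM. By contrast SP-ND, the library with the highest Spp1 in PT-only cells, was the second highest for the thick ascending limb genes alone, and its Umod level was 87.1 CPM against 72.7 in WT-ND and 127 in SP-HFD. The part of these genes in the Spp1 levels was not tested.

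**Figure D4:**
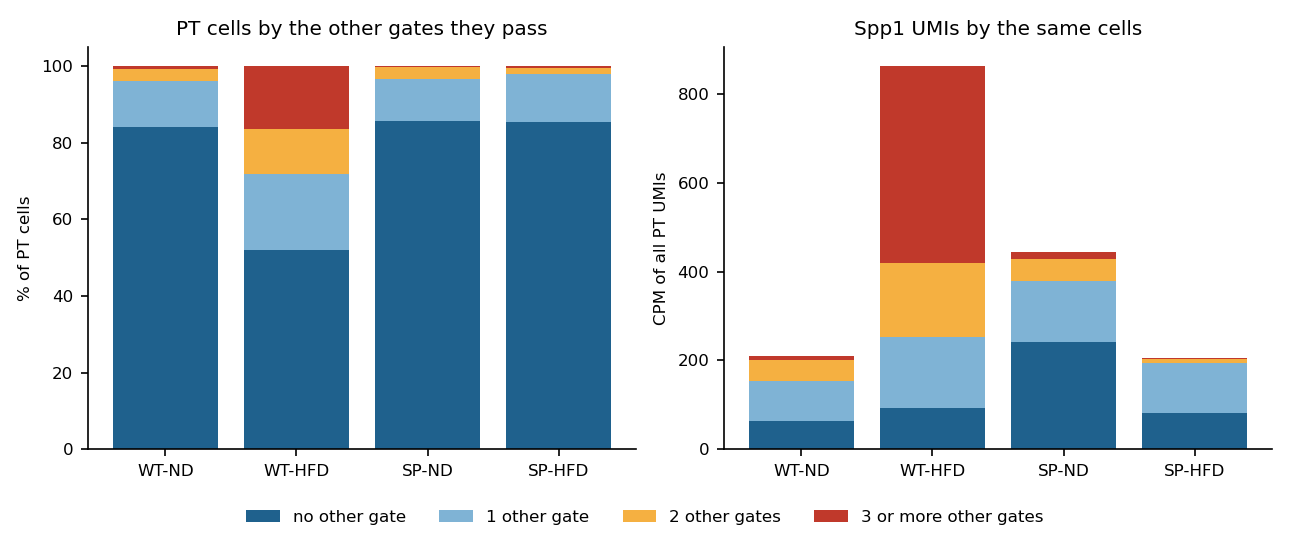
Left, the percentage of PT cells in each library that passed 0, 1, 2, or 3 or more other gates, and right, the Spp1 UMIs of the same cells per 1000000 UMIs of all PT cells. In WT-HFD the cells with 3 or more other gates are 16.3% of PT cells and hold 51.5% of the Spp1 UMIs.

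Detection was compared after each cell had been thinned to 1000 UMIs, with podocytes as cells that should lack these tubular genes. Spp1 was detected in 7.85% of PT-only cells in WT-ND against 22.6% in WT-HFD, while SP-ND had 18.6% and SP-HFD 10.1% (unthinned 31.2%, 50.6%, 59.3% and 37.3%). Podocytes gave 7.94%, 10.3%, 9.63% and 9.76% (unthinned 24.6%, 26.9%, 43.1% and 28.2%), at median depths of 4030, 8046, 7037 and 6185 UMIs. At this depth the shares of WT-ND and SP-HFD were within the podocyte background, with overlapping intervals. Those of WT-HFD (20.8% to 24.6%) and SP-ND (16.4% to 21.1%) were above it. Intervals of pooled Spp1 CPM did not overlap in SP-HFD, at 101 in PT-only cells (94.5 to 108) and 54.5 in podocytes (44.7 to 65.8). In WT-ND they did, at 79.4 (76.0 to 82.9) and 67.35 (56.0 to 80.35).

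Krt8 was detected in 7.40%, 10.0%, 7.14% and 8.83% of thinned PT-only cells in the same order of libraries, all above the podocyte shares of 1.32%, 1.59%, 0.459% and 0.337%. Unthinned Krt8 shares were 40.0%, 45.8%, 47.2% and 50.8%. The Clopper-Pearson 95% intervals of the 4 thinned Krt8 shares overlapped within SP (5.70% to 8.80% on ND, 6.84% to 11.2% on HFD) and did not within WT (6.43% to 8.46% on ND, 8.72% to 11.5% on HFD). Clu was detected in 1.09%, 3.35%, 0.714% and 0.712% of PT-only cells, against 1.06%, 1.19%, 0.459% and 1.68% of podocytes. The intervals of these thinned shares overlapped in every library, WT-HFD included. Pooled Clu CPM of WT-HFD did not overlap, at 23.4 in PT-only cells (21.2 to 25.8) and 7.24 in podocytes (4.05 to 11.9). In WT-ND, SP-ND and SP-HFD the PT-only levels of 11.1, 7.19 and 7.20 CPM lay below the podocyte levels of 11.5, 9.32 and 9.59. The other members were each detected in under 1.2% of thinned PT-only cells in every library. Havcr1 was detected in 0.142% to 0.324%, against 0% of podocytes, where a count of 0 allows up to 0.794% to 1.38%, so these shares could not be told from background at this depth. Podocytes held 0 Havcr1 UMIs, with Poisson upper ends of 2.02, 1.78, 2.15 and 1.86 CPM. The PT-only intervals of pooled CPM began above these in WT-ND (2.295) and WT-HFD (4.28). They overlapped them in SP-ND (from 1.47) and SP-HFD (from 1.56).

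Within PT-only cells Vcam1 and Sox9 sat in few cells. At least 1 Vcam1 UMI was found in 77, 59, 37 and 14 cells, in the same order, that is 2.77%, 3.14%, 3.26% and 1.91%. In WT-HFD 5 cells held 51.7% of the Vcam1 UMIs, and 1 of them 66 of 242. Sox9 was found in 33, 20, 10 and 6 cells, of which 26, 13, 9 and 2 also held Vcam1. Krt8 was spread widely, with 1113, 860, 536 and 372 cells.

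The cells with Vcam1 held higher levels of the other members. Splitting PT-only cells by Vcam1 is a description with no test, and the cells with Vcam1 were deeper, with a median of 11318 UMIs against 7743.5 in cells with neither Vcam1 nor Havcr1 in WT-ND. Of the other 9 members, 7 had more than 3 UMIs in every library (not Lcn2 or Krt20), and all 7 were higher in the cells with Vcam1 in all 4 libraries. The split moved many genes: of all 11289 genes read the same way, 35.4% were higher in all 4 libraries and 7.78% lower. Both shares depended on level. The share higher rose from 21.5% among genes of 1 to 3 CPM to 45.5% among genes of 100 CPM or more. The share lower was 6.19% in the first of these groups and 25% in the last. Sox9 stood at 58.5, 61.6, 87.8 and 8.73 CPM in cells with Vcam1 and at 1.23, 0.465, 0.0700 and 2.34 in cells without. The SP-HFD value was the lowest of the 4 and came from 2 cells. Krt8 stood at 321, 284, 272 and 458 CPM with Vcam1 and at 72.6, 104, 61.8 and 104 without. Icam1 stood at 36.1, 38.5, 53.0 and 52.4 CPM with and 3.65, 6.69, 5.46 and 5.67 without.

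The wider lists were read against the same shares. Of the stress genes 7 of 7 were higher with Vcam1 in all 4 libraries, of the dedifferentiation genes 8 of 9, of the secreted genes 7 of 8, of the fibrosis genes 3 of 3 and of the proliferation genes 0 of 2. C3, complement component 3, stood at 257, 186, 470 and 131 CPM with Vcam1 against 4.27, 3.08, 5.74 and 5.80 without. Sox4, a transcription factor of immature epithelium, stood at 151, 100, 177 and 148 CPM with and 5.05, 5.88, 5.60 and 6.17 without. Of 8 genes of PT identity, 7 were lower in all 4 libraries and 0 higher. Slc7a13, a transporter of the late segment, stood at 124, 73.1, 189 and 48.0 CPM with Vcam1 and 442, 245, 305 and 300 without, and Pck1, an enzyme of gluconeogenesis, was lower too. Slc5a2 was the exception of the 8. C3, Sox4 and Slc7a13 were named after their values were seen.

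Depth was held more even by reading deeper cells. With at least 5000 UMIs, 7 of 7 members, 6 of 7 stress genes and 9 of 9 dedifferentiation genes were higher and 7 of 8 identity genes lower in all 4 libraries, against 36.2% higher and 7.52% lower of all genes. With at least 2 Vcam1 UMIs, 6 of 7 members were higher and 6 of 8 identity genes lower, against 35.5% and 9.2%. Summed macrophage gate genes were 24.5, 23.1, 21.5 and 26.2 CPM in cells with Vcam1 and 2.54, 7.21, 2.73 and 5.06 in cells without, against 6355 to 8203 in macrophages. Summed endothelial gate genes were 6.38, 33.4, 9.94 and 17.5 CPM with and 5.66, 26.9, 4.41 and 6.04 without, against 6539 to 7148 in endothelial cells. Summed mesenchymal gate genes were 13.8, 21.8, 4.97 and 0 CPM with and 2.75, 6.28, 2.52 and 1.23 without, against 8795 to 9875 in mesenchymal cells. These 3 classes hold Vcam1 at higher levels than PT cells, and their part in the split was not tested.

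**Figure D5:**
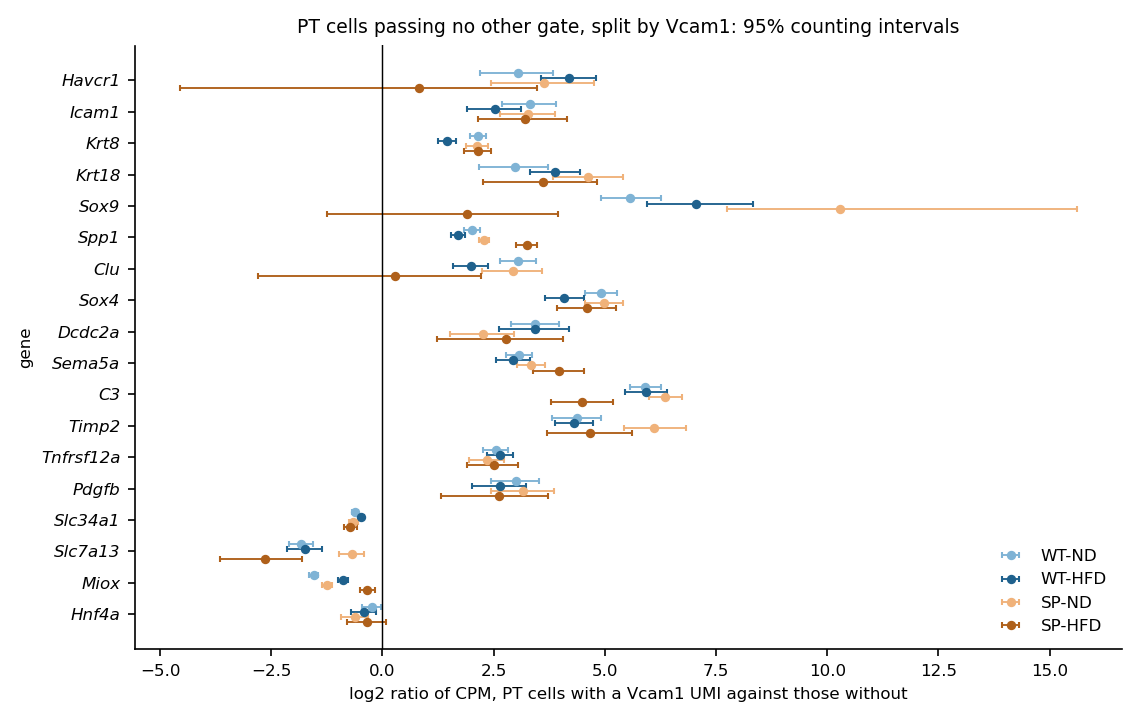
Log2 ratios of CPM in PT-only cells with a Vcam1 UMI against those without, for the other members and for companion and identity genes picked after their values were seen, with a point per library and bars for 95% counting intervals. The 7 members lie right of 0 in all 4 libraries, with SP-HFD intervals that cross 0 for Havcr1, Sox9 and Clu, and Slc7a13 lies left of 0 in all 4.

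The cells were also split by Havcr1. It was found in 54, 45, 17 and 19 PT-only cells, of which 6, 9, 3 and 1 also held Vcam1, where the product of the shares gives 1.49, 1.41, 0.554 and 0.363 cells. Cells with both genes were deeper, with a median of 21674 UMIs in WT-HFD against 4863.5 in cells with neither. Of the 7 members 1 was higher with Havcr1 in all 4 libraries, Icam1, against 12.6% higher and 6.29% lower of all 11296 genes. The share higher rose with level here too, from 3.83% among genes of 1 to 3 CPM to 34.4% among genes of 100 CPM or more. Sox9 was found in 2, 1, 1 and 0 of the cells with Havcr1, and Krt8 stood on either side, at 71.2, 139, 104 and 91.3 CPM with Havcr1 and 82.1, 110, 69.5 and 114 without. Of the 8 genes of PT identity, 1 was higher with Havcr1 in all 4 libraries and 3 were lower (Slc5a2, Slc5a12 and Pck1). The higher gene was Slc7a13 (597, 361, 934 and 808 CPM against 425, 231, 287 and 275), the opposite of its order with Vcam1. As counts, 1 of 7 members and 1 of 8 identity genes higher lay near the share of all genes. Slc5a12 and Pck1 were lower in all 4 libraries with Vcam1 as well.

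The position along the proximal tubule separated the markers as well. PT-only cells were split into early (more Slc5a12 than Slc7a13 UMIs) and late (the reverse), and cells with equal counts, the shallowest, were set apart. Havcr1 was higher in late cells in all 4 libraries, with log2 late-to-early ratios of 1.59 (0.65 to 2.63) in WT-ND against 2.56 (1.65 to 3.59) in WT-HFD, while SP-ND had 1.48 (−0.11 to 3.49) and SP-HFD 2.27 (0.62 to 4.32). The early side rested on 4 to 12 Havcr1 UMIs. Without the 5 cells with the most Havcr1 UMIs, added after the data were seen, WT-ND stood at 0.98 (−0.01 to 2.07) and WT-HFD at 1.24 (0.17 to 2.38). SP-ND then stood at 2.93 (0.19 to 8.34) and SP-HFD at 1.96 (−0.04 to 4.49). Cells with equal counts held Havcr1 at 6.49, 7.09, 4.44 and 1.38 CPM (13, 25, 9 and 2 UMIs), above the late cells in WT-ND and SP-ND. Krt8 was near even, from −0.36 to −0.11, with SP-HFD at 0.13 in place of −0.11 without the 1 cell with the most Krt8 UMIs. Sox9 was lower in late cells in the 3 libraries with UMIs on both sides, −5.59, −1.37 and −2.06 in WT-ND, WT-HFD and SP-ND, and in SP-HFD it was counted with 17 UMIs in early and 0 in late cells. The SP-ND ratio of Sox9 was −0.90 without the 1 cell with the most UMIs, and the WT-HFD ratio −0.09 without 5 such cells.

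Spp1 was lower in late cells in 3 libraries and higher in WT-HFD, whereas the WT-HFD direction of Vcam1 rested on 1 cell. The ratio of Vcam1 was −3.06 (−3.75 to −2.43) in WT-ND against 0.70 (0.26 to 1.14) in WT-HFD, while SP-ND had −1.56 (−2.32 to −0.83) and SP-HFD −2.22 (−5.42 to −0.05). The WT-HFD late cells held 104 Vcam1 UMIs, 66 of them in 1 cell. Without that cell the WT-HFD ratio turned to −0.74 (−1.34 to −0.17), on the same side as the other libraries, an alternative added after the data were seen. Without the 5 cells with the most Vcam1 UMIs the SP-HFD ratio was 0.35, from 2 UMIs on each side. The Spp1 ratio was −1.76, 0.67, −2.89 and −1.48 in the same order. In SP-ND the early cells stood at 614 CPM of Spp1 (592 to 636) and the late cells at 82.7 (76.5 to 89.2), so that the high Spp1 of this library lay mainly in the early part. Vcam1 was highest in the cells with equal counts in all 4 libraries, at 22.5, 17.0, 24.2 and 19.3 CPM. Those cells, 441, 716, 244 and 196 in number, had medians of 2925 to 5711 UMIs.

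Outside the proximal tubule the members differed by segment. Principal cells of the collecting duct held lower Clu on HFD in both genotypes, 747 CPM in WT-ND against 339 in WT-HFD, while SP-ND had 660 and SP-HFD 317. The log2 ratio was −1.14 in WT (−1.26 to −1.02) and −1.06 in SP (−1.17 to −0.94). Krt18 in the same cells was 317, 215, 360 and 224 CPM and Spp1 1502, 1050, 1683 and 966, each lower on HFD in both genotypes and under 2-fold. Krt8 in principal cells was 242, 202, 253 and 210 CPM, lower on HFD in both genotypes where PT-only cells were higher. In the thick ascending limb the Krt8 diet ratio was 0.34 in WT (0.14 to 0.53) and 0.14 in SP (−0.03 to 0.31), and in the distal convoluted tubule 0.22 (−0.02 to 0.45) and 0.41 (0.17 to 0.65). Intercalated cells gave 0.11 (−0.21 to 0.43) and 0.23 (−0.12 to 0.58), so 4 of these 6 intervals held 0. In thin limb cells Krt8 stood at −0.63 in WT (−0.998 to −0.28) and −0.18 in SP (−0.55 to 0.19).

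Lcn2 in the thick ascending limb was 14.8 CPM in WT-ND against 33.8 in WT-HFD, while SP-ND had 32.4 and SP-HFD 28.7, so WT-ND stood below the other 3 libraries (WT diet 1.19, 0.83 to 1.56). In principal cells Lcn2 was highest in SP-HFD at 149 CPM, against 88.6 to 94.2 in the others. Spp1 in thin limb cells was higher on HFD in both genotypes and under 2-fold, at 15220, 21170, 14190 and 22880 CPM in 75 to 136 cells per library.

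Mesenchymal cells differed in Spp1 by genotype, with 126 CPM in WT-ND against 72.1 in WT-HFD, while SP-ND had 681 and SP-HFD 368. On the log2 scale SP exceeded WT by 2.43 on ND (666 against 81 UMIs) and by 2.35 on HFD (336 against 72), in 155 to 195 cells per library. The direction was shared by endothelial cells (0.47 on ND, 1.42 on HFD) and macrophages (0.64, 0.81). Lymphocytes gave 1.42 on ND and 0.19 on HFD, the latter with an interval that held 0 (−0.23 to 0.61). Podocytes gave 0.45 on ND and −0.45 on HFD. All kept cells held 995 CPM of Spp1 in WT-ND and 1325 in WT-HFD, while SP-ND had 1712 and SP-HFD 1812. The part of free RNA in these levels was not tested. Vcam1 in mesenchymal cells was higher on HFD in both genotypes, 28.0, 73.1, 25.6 and 52.6 CPM, with ratios of 1.38 (0.62 to 2.22) in WT and 1.04 (0.31 to 1.80) in SP.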

How the data were processed

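Whole kidneys of 4 conditions were measured by droplet scRNA-Seq, with 1 library each. The deposited files hold raw counts of UMIs by gene and by barcode. The authors ran Cell Ranger on the mm10 genome to obtain them. The file headers name version 6.1.2 and the submitters' processing notes 2.1.1. Cells with 200 to 5000 genes and under 50% mitochondrial UMIs were kept. Classes were gates of at least 5 summed UMIs of marker genes, and PT cells that passed further gates were shown apart. No doublet caller was run. UMIs were summed per library and class and given as CPM, scaled to 1000000 UMIs. Intervals are exact Poisson, conditional binomial and Clopper-Pearson at 95%, and cover counting error only. A count of 0 was given a limit of 3 counts. Ratios were called past 2-fold among genes with a mean of at least 1 CPM. Shares were compared after thinning each cell to 1000 UMIs, leaving out shallower cells (121 and 28 PT-only cells of WT-ND and WT-HFD, 14 and 30 of SP-ND and SP-HFD).

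All 10 members were named, with Slc5a2 in every library and, of 35 companion genes, up to 6 per comparison with the largest absolute log2 ratio past 2-fold and at least 20 UMIs in the higher library. The members and lists were chosen with earlier results of these data known. Alternatives were other gates, filters, scalings and folds, mean over cells, subtraction of 10% free RNA and omission of the top cell or 5 top cells per gene. Scripts were tested on simulated data. Tables were made in Python 3.11.15 with pandas 2.3.3 and numpy 2.4.6, intervals with scipy 1.17.1 and plots with matplotlib 3.10.9.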

Additional observations from a re-analysis of the deposited data

Results flagged for a closer look

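The diet ratios of 3 members in PT cells pointed in opposite directions in the genotypes with both counting intervals excluding 0. On the log2 scale Lcn2 was 1.81 in WT and −3.08 in SP, Spp1 2.04 and −1.11, and Clu 0.95 and −0.44. In PT-only cells the same held for Vcam1 (0.66 in WT and −0.68 in SP) and Spp1 (1.18 and −1.51). These differences between genotypes were not tested, because each condition was 1 library. How many of all genes met the same rule was not counted, so these numbers of members have no background. Vcam1, Icam1 and Krt18 in PT cells, and Icam1 and Krt18 in PT-only cells, also had opposite signs, with an interval that held 0. The SP-HFD value of Lcn2 rested on 3 UMIs, and without the 5 cells with the most Vcam1 UMIs the Vcam1 ratios were 0.08 in WT and −1.78 in SP.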

How the results depend on the processing

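No paired analysis was possible because each condition had 1 library. Of 678 recomputed member ratios, 472 stayed within the interval of the reported ratio. Another 205 did not, and these include Lcn2 ratios in PT-only cells that had a count of 0 and so no interval. The other 1 turned direction past the fold: Vcam1 in PT cells, SP-HFD against WT-HFD, at 0.087 with no upper limit on genes. Of 20 ratios past 2-fold, 19 kept their sign throughout. The 20 include Lcn2 ratios in PT-only cells, where that gene was under 1 CPM on average and was not called above. Of the late-to-early ratios past 2-fold, Vcam1 of SP-HFD turned from −2.22 to 0.35 without its 5 top cells and Clu of SP-HFD from 1.17 to −0.045 without its top cell. The causes of the shifts below were not tested.

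Counts of members past 2-fold moved by over 1.5 times as follows, with the share of all genes called the same way in parentheses. With a PT gate of 3 UMIs, PT cells gave 1 higher for WT diet (2.37%) and 1 lower for SP diet (2.44%). They gave 0 higher for genotype on ND (0.495%) and 2 lower for genotype on HFD (4.8%). PT-only cells gave 2 lower for SP diet (3.54%). With a gate of 10, PT cells gave 4 higher for WT diet (8.87%), and PT-only cells 0 higher for WT diet (3.77%) and 1 lower for genotype on HFD (1.95%). Under 30% mitochondrial UMIs left 4157 PT and 2902 PT-only cells, with 3 lower for SP diet in the latter (7.88%). No upper limit on genes gave 1 higher for SP diet in PT cells (4.28%). Restricting PT cells to those with no other gate gave 1 lower for SP diet (3.47%) and 3 lower for genotype on HFD (3.29%). The mean over cells gave 4 higher for WT diet in PT cells (8.47%). In PT-only cells it gave 4 higher for WT diet (9.5%), 1 higher (9.13%) and 2 lower (4.34%) for SP diet and 2 higher for genotype on ND (2.68%). Subtracting 10% free RNA gave 1 lower for genotype on ND in PT cells (3.86%), and in PT-only cells 5 higher for WT diet (5.65%) and 2 lower for SP diet (4.01%). Leaving out cells with 2 UMIs of another gate gave 3 lower for SP diet in PT-only cells (3.43%). At 1.5-fold, PT cells gave 5 higher for WT diet (15.3%) and 1 higher for SP diet (12.2%). PT-only cells at that fold gave 6 higher for WT diet (10.9%) and 1 higher (11.7%) and 2 lower (8.8%) for SP diet. They also gave 2 higher (4.88%) and 1 lower (5.06%) for genotype on ND and 5 lower for genotype on HFD (6.37%). Requiring 1 UMI in each library gave 1 higher for genotype on HFD in PT cells (9.73%) and 2 higher for genotype on ND in PT-only cells (3.98%).

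Depth limits Havcr1, Lcn2, Krt20 and Sox9 most, with 21 or fewer UMIs each in PT-only cells of SP-HFD. Intervals leave out variation between mice and preparations.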
